A study of Arabidopsis thaliana with 6 samples.

Results

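The PEAR and related vascular Dof factors are 6 transcription factor genes of Arabidopsis thaliana, taken by their gene identifiers from a gene comparison of the root apex that holds 33233 loci, of which 18050 had a test. They are PEAR1 (AT2G37590), PEAR2 (AT5G02460), DOF6 (AT3G45610), TMO6 (AT5G60200), HCA2 (AT5G62940) and OBP2 (AT1G07640), and all 6 had a test. The plants were wild-type Col-0 seedlings, 8 days old and grown in constant light on vertical gel plates, with no mutation or treatment in any group. Root tips preserved in RNAlater were cut into zone II, a 1.5 mm piece with elongating and hair-bearing cells, and zone I, the last 0.5 mm with the root cap and the dividing cells, and each zone gave 3 RNA-seq libraries. The deposited comparison calls its 2 conditions experiment and control, and no source used here ties either name to a zone. Each condition has 1 value per gene, so no spread between libraries can be shown, library depth is unknown, and nothing in the labels says whether the libraries of a zone came from separate sets of plants. The p-values therefore rest on a spread between libraries as the authors' test estimated it, which may be technical. Which libraries entered each condition is not stated in the labels.

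Dof proteins are plant transcription factors that bind DNA through 1 zinc finger, in which 4 cysteines hold the metal ion, and their usual target is a short core with the letters AAAG. PEAR1, PEAR2, DOF6 and TMO6 are known for acting together in the young phloem of the root, where PEAR proteins made in protophloem sieve element precursors move into neighbouring cells and drive the divisions that thicken the vascular cylinder. Cytokinin promotes PEAR transcription, TMO6 was first described as a target of the auxin response factor MONOPTEROS, and transcription factors of the HD-ZIP III class in the centre of the cylinder restrain PEAR transcription and movement. HCA2 promotes cambial activity in the stem, and OBP2 is expressed in phloem and is known as a regulator of indole glucosinolate synthesis.

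Marker genes differed strongly between the conditions, and what part of each later result goes with these differences was not tested. In the authors' deposited table all 6 tested markers of dividing cells and 4 of 5 of the root cap were called lower in the experiment condition, with summed values of 5.03 in experiment against 147 in control for dividing cells, and 1.39 against 85.2 for the root cap. PLT1, PLT2, BRN1, BRN2 and FEZ among them were listed at 0 in experiment. Root hair markers were called higher in 5 of 6 (summed values 755 in experiment and 8.30 in control). Photosynthesis genes, used as markers of shoot tissue, were called higher in 5 of 6 (164 and 16.3). Of these shoot markers 2 lie on loci that reach well past the annotated gene and hold most of both sums. Without them 3 of 4 were called higher. Control thus had the higher values for markers of the root cap and dividing cells, the cells named above for zone I. Experiment had the higher values for hair markers, and hair-bearing cells are named for zone II. No label states this match, so values are given by condition name. In bulk tissue, fewer cells of a type and less RNA per cell cannot be told apart. A gene was called when its deposited Cuffdiff q-value was under 0.01, a test that called 43.6% of all tested loci, 22.3% as higher and 21.2% as lower in experiment.

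The zinc finger is the part through which Dof proteins bind DNA, and the fingers of 5 of the 6 factors are compared here. The coding bases of the finger, from the first to the last of the 4 cysteines that hold the metal ion, are shown 5′ to 3′ on the coding strand. The codons of these 4 cysteines are in capitals. A further cysteine codon inside each stretch (tgc or tgt) is left in lower case. They were read from the RefSeq genome of build TAIR10.1, at chr2:15769775-15769861 (plus strand) for PEAR1, chr5:540374-540460 (minus) for PEAR2, chr3:16740058-16740144 (minus) for DOF6, chr5:24241346-24241432 (plus) for TMO6 and chr1:2355382-2355468 (minus) for OBP2.
PEAR1: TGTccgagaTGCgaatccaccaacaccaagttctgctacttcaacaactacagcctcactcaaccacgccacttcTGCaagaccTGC
PEAR2: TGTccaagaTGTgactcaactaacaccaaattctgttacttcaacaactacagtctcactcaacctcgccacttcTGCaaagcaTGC
DOF6: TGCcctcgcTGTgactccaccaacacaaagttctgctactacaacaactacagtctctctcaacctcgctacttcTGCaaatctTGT
TMO6: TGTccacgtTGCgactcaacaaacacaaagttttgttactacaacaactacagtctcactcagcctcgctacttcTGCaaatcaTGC
OBP2: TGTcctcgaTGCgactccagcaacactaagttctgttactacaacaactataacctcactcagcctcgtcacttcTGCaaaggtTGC

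Each stretch is 87 bases long and encodes 29 residues. In these 5 genes 60 of the 87 bases and 22 of the 29 encoded residues are identical. Over the 10 pairs, base identity ran from 80.5% for PEAR1 and TMO6 to 87.4% for PEAR2 and TMO6, with a median of 82.2%. PEAR1 and PEAR2 share 86.2% of these bases, as do DOF6 and TMO6, whose fingers differ in 1 encoded residue. The same cysteine spacing was found in all 36 genes of the Dof family in the reference. Outside the gene itself, the best match of PEAR1 in the genome was PEAR2 (261 aligned bases, 78.9% identity), and that of DOF6 was TMO6 (716 aligned bases, 70.0% identity). None of the 6 genes had a match elsewhere of at least 100 bases at 95% identity, and none overlaps another annotated gene on either strand.

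Of the 6 vascular Dof factors, TMO6, HCA2 and OBP2 were called higher in the experiment condition and none was called lower, against 22.3% and 21.2% of all tested loci. PEAR1, PEAR2 and DOF6 did not pass the test. The median log2 fold change of the 6, experiment over control, was 0.76, beside -0.03 over all tested loci. The values below are those of the authors' deposited table. They are condition values whose unit the header does not name. Cuffdiff writes FPKM, a count of fragments scaled by length and library size, in these columns, and orders of levels between genes are given on that reading.

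PEAR1, 1 of the 2 genes that name the group and known for the movement of its protein, had a value of 1.89 in experiment and 3.19 in control in the authors' deposited table. Its log2 fold change was -0.75 (q = 0.334). PEAR2, which acts redundantly with PEAR1, had 0.838 in experiment and 1.27 in control in the authors' deposited table (log2 -0.60, q = 0.482). Both PEAR genes therefore had the lower value in experiment, and neither difference passed the test. These were the 2 least abundant members in experiment.

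DOF6, the partner of the PEARs in the same divisions, had 6.23 in experiment and 4.07 in control in the authors' deposited table, a log2 fold change of 0.62 with q = 0.233. It did not pass. TMO6, its closest relative among the 6, had 15.2 in experiment and 8.10 in control and rose by 0.91 on the log2 scale (q = 0.00233 in the authors' deposited table). DOF6 and TMO6 had the same sign, and whether their folds differ was not tested.

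HCA2, the cambial regulator, had 5.59 in experiment and 0.842 in control in the authors' deposited table. With a log2 fold change of 2.73 (6.64-fold, q = 0.00835) it had the largest fold of the 6 and the q nearest to the threshold. OBP2, the phloem Dof, had 41.0 in experiment and 8.71 in control and rose 4.71-fold (log2 2.24, q = 0.000177 in the authors' deposited table). That q is the lowest the table holds and is shared by 5093 loci. With a q under 0.001, or with the more cautious Benjamini-Yekutieli adjustment over all tested loci, OBP2 was the 1 member still called (adjusted p 0.00184 by Benjamini-Yekutieli), while TMO6 (0.0242) and HCA2 (0.0866) were not.

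**Figure D1:**
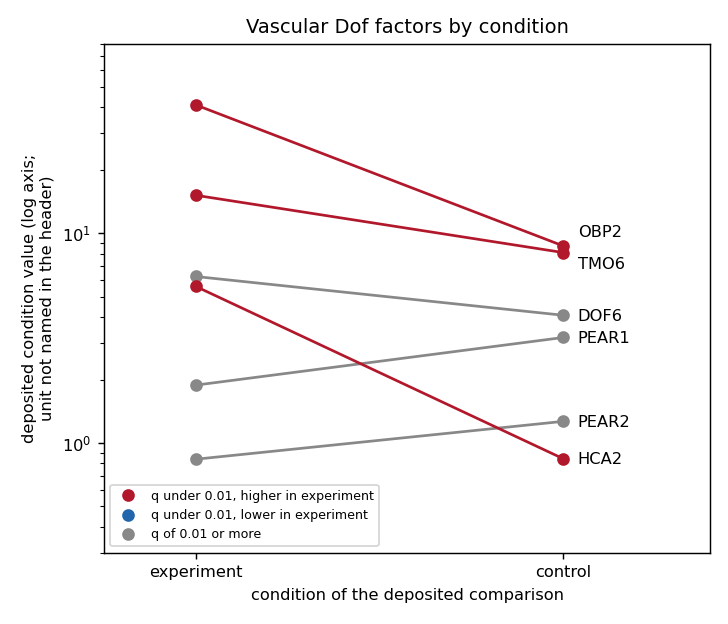
Deposited value of each of the 6 genes (log axis, unit not named in the header) in the experiment and control conditions, with 1 point per condition and a line joining the points of a gene. The red lines of OBP2, TMO6 and HCA2 (q under 0.01) are higher in experiment, HCA2 with the steepest line (5.59 in experiment, 0.842 in control), while PEAR1 and PEAR2 slope the other way without passing the test.

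The order of the members differed between the conditions for 3 of them. In the authors' deposited table the order in experiment was OBP2, TMO6, DOF6, HCA2, PEAR1 and PEAR2, and in control OBP2, TMO6, DOF6, PEAR1, PEAR2 and HCA2. HCA2 was above both PEAR genes in experiment and below both in control. OBP2 (8.71) and TMO6 (8.10) were close in control, and whether such neighbours differ beyond the spread between libraries cannot be shown without values per library. Summed over the 6, the deposited values came to 70.7 in experiment and 26.2 in control, a ratio of 2.70. OBP2 made up 58.0% of that sum in experiment and 33.3% in control, and TMO6 21.5% and 30.9%. PEAR1 and PEAR2 together made up 3.86% in experiment and 17.0% in control.

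Among all tested loci the members were of low to middle abundance in control. OBP2 stood at percentile 81.8 of the experiment values and 54.0 of the control values, and TMO6 at 63.7 and 52.3, in the authors' deposited table. HCA2 was at percentile 39.6 in experiment and 11.4 in control. PEAR1 (17.0 in experiment, 29.7 in control) and PEAR2 (7.10 and 14.6) lay low in both conditions. DOF6 was at 42.2 in experiment and 35.2 in control. By log2 fold change HCA2 was at percentile 85.6 of all tested loci, OBP2 at 82.5, TMO6 at 68.3, DOF6 at 63.5, PEAR2 at 36.6 and PEAR1 at 33.0.

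On TAIR10, the build of the files, the authors' deposited table places PEAR1 on chromosome 2 from 15769121 to 15770619, PEAR2 on chromosome 5 from 539249 to 541112 and DOF6 on chromosome 3 from 16739289 to 16740445. TMO6 lies on chromosome 5 from 24240975 to 24242523, HCA2 on chromosome 5 from 25256919 to 25258681 and OBP2 on chromosome 1 from 2354354 to 2356227, as placed by the same authors' deposited table. Each of these spans lies within the protein-coding gene of the same name in the reference. Each gene has 2 exons in its longest coding transcript, and OBP2 is annotated with 3 transcripts against 1 for each other member.

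The isoform comparison of the authors' deposited tables is a further test of the same 2 conditions. It holds 9 isoforms of the 6 genes, 8 of them tested. It called 2, both higher in experiment, where 16.8% of all tested isoforms were called. The single isoform of TMO6 had 17.2 in experiment and 8.68 in control (log2 0.99, q = 0.00152), and that of HCA2 had 6.72 and 0.767 (log2 3.13, q = 0.00434), in the authors' deposited table. All 9 isoforms had the sign of their gene's fold. With the same 2 conditions compared and 1 isoform each for 4 members, that likeness is not independent of the gene result. DOF6 had 7.56 in experiment and 4.12 in control for its 1 isoform (log2 0.87, q = 0.132), and PEAR2 0.946 and 1.38 (log2 -0.54, q = 0.851), in the authors' deposited table. The larger isoform of PEAR1 had 2.65 in experiment and 3.84 in control (log2 -0.54, q = 0.490), and the smaller, with 0.527 and 0.954, had no test.

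OBP2 was called as a gene, but none of its 3 isoforms was. In the authors' deposited table isoform 1 had 37.9 in experiment and 5.43 in control (log2 2.80, q = 0.0591). Isoform 2 had 3.12 in experiment and was listed at 0 in control (q = 0.277), and isoform 3 had 10.5 in experiment and 5.93 in control (log2 0.82, q = 0.683). Isoform 1 made up 73.6% of the summed isoform values of OBP2 in experiment and 47.8% in control, and isoform 3 made up 20.3% and 52.2%. A change in these shares was not tested, and the files do not pair the isoforms with the annotated transcripts. The locus printed beside the isoforms of OBP2 is 21170 bases long and that of PEAR2 35444 bases, so both reach far past the gene. The isoform value of PEAR2 and those of OBP2 are uncertain for that reason.

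**Figure D2:**
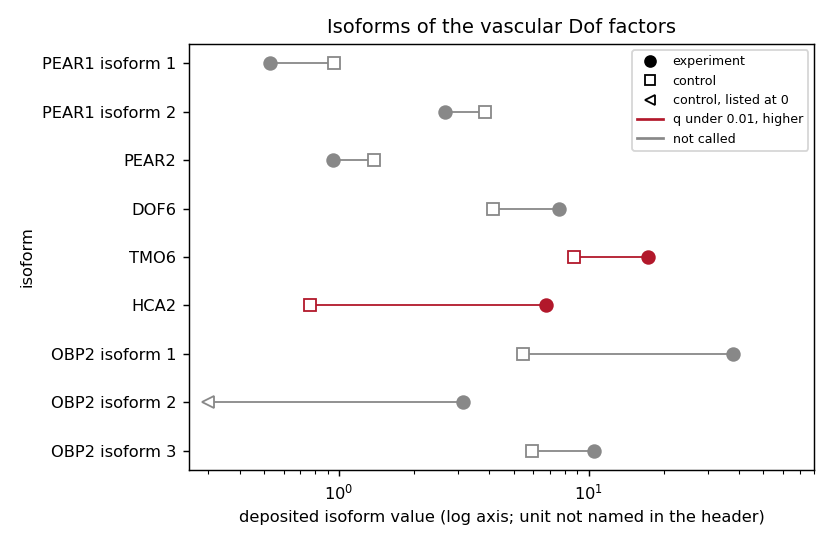
Deposited value (log axis, unit not named in the header) of the 9 isoforms of the 6 genes, with filled circles for experiment and open squares for control, and an open triangle at the left edge for the OBP2 isoform listed at 0 in control. The isoforms of TMO6 and HCA2 (red) passed the test, while the 3 of OBP2 lie higher in experiment without passing.

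Because TMO6, HCA2 and OBP2 were called in 1 direction, the 250 bases before the annotated start of each are shown, 5′ to 3′ on the gene's strand, with every AAAG and its reverse complement CTTT in capitals. They come from the RefSeq genome of build TAIR10.1, at chr5:24240560-24240809 (plus strand), chr5:25258705-25258954 (minus) and chr1:2356414-2356663 (minus).
TMO6: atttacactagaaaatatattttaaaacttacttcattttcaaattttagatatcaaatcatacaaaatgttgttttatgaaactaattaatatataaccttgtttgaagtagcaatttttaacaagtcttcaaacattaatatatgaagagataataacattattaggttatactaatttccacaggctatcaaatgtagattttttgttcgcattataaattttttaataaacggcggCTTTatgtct
HCA2: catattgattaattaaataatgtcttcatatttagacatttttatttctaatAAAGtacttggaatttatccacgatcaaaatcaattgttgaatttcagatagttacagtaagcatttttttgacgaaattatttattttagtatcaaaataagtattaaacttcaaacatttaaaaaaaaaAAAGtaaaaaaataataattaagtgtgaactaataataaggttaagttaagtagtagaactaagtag
OBP2: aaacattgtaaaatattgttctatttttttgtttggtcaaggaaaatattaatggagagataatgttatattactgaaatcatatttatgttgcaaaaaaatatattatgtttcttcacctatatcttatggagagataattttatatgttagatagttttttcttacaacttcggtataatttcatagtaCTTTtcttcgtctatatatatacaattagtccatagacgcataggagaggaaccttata

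These windows hold fewer Dof cores than the median promoter. TMO6 has 1 match, HCA2 2 and OBP2 1, where the median of 27437 protein-coding promoters of this length was 4 and 98.0% held at least 1. PEAR1 has 2 such matches, PEAR2 3 and DOF6 4. The other letters searched on both strands were TGTCTC and TGTCGG (auxin response elements), CANNTG (the E-box of basic helix-loop-helix factors) and TAATNATTA (a core bound by HD-Zip proteins), held by 10.9%, 4.16%, 55.3% and 3.7% of all promoters. TGTCTC occurs 2 times in the DOF6 window and in none of the other 5, and TGTCGG occurs in none of the 6. TAATNATTA occurs once each in the windows of HCA2, 55 bases before the start, and PEAR1, 76 bases before it. CANNTG occurs 3 times in the PEAR1 window, once each in those of TMO6 and HCA2, and in none of the others. In these 6 windows no match shares bases with a match of another motif. A match is a description of the letters and says nothing of binding.

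The rest of the Dof family was also mostly higher in the experiment condition. Of the other 30 Dof genes 21 had a test, and 13 were called higher, 2 lower and 6 not at all, beside 22.3% and 21.2% of all tested loci. Their median log2 fold change was 1.78, against -0.03 over all tested loci. These counts describe the family and were not set against other gene groups. The pathway lists below were chosen with earlier results of these data known, so their counts are descriptions too.

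DOF2.1, which acts in the same divisions downstream of TMO5 and LHW, had 89.3 in experiment and 47.0 in control in the authors' deposited table (log2 0.93, q = 0.000177). It had the highest value of the family in both conditions. DOF4.6, a vein Dof, had 49.5 in experiment and 24.7 in control (log2 1.00, q = 0.000177 in the authors' deposited table). DOF2.2, the best genome match of OBP2 (988 aligned bases, 68.0% identity), rose by 1.59, and DOF1.8 by 2.19, each at the lowest q of the authors' deposited table.

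The germination regulators DAG1 (67.0 in experiment, 13.9 in control, log2 2.27) and DAG2 (23.5 and 6.05, log2 1.95) both rose at that q in the authors' deposited table. COG1, a brake on phytochrome signalling, had 68.1 in experiment and 16.4 in control (log2 2.05, q = 0.000177 in the authors' deposited table). OBP3 rose by 1.78 and OBP4, a repressor of cell growth, by 1.90 on the log2 scale, both at the same lowest q in the authors' deposited table. DOF4.1 had 10.2 in experiment, was listed at 0 in control and passed the test.

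The cycling Dof factors, known for the daily control of flowering, were split by the test. CDF5 (10.4 in experiment, 0.988 in control, log2 3.4, q = 0.000491), CDF4 (log2 1.56, q = 0.00270) and CDF3 (log2 1.50, q = 0.00685) rose in the authors' deposited table. CDF1 (2.67 in experiment, 1.26 in control, log2 1.08, q = 0.145) and CDF2 (5.89 and 6.42, log2 -0.12, q = 0.734) were not called by the authors' deposited table. DOF1.4 (21.1 in experiment, 24.4 in control, log2 -0.21, q = 0.416 in the authors' deposited table) did not pass either. The 2 Dof genes that fell were DOF1.2, listed at 0 in experiment against 2.98 in control, and DOF3.5, listed at 0 against 3.45 (q = 0.000177 for each in the authors' deposited table). In the gene comparison every tested gene of the lists used here at 0 in 1 condition had that lowest q, DOF4.1 included. Some genes just above 0 were not called, such as DOF1.7 (3.14 in experiment, 0.0320 in control). Whether the calls of genes at 0 rest on the exact 0 was not tested.

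High folds without a call were found at low control values. DOF1.7 had 3.14 in experiment and 0.0320 in control (log2 6.62, q = 0.188), and DOF1.6 had 2.39 and 0.105 (log2 4.5, q = 0.235), in the authors' deposited table. DOF3.1 had 15.3 in experiment and 0.608 in control (log2 4.65) and narrowly missed the threshold with q = 0.0117 in the authors' deposited table. At a q under 0.05 it is the 1 Dof gene added to the calls.

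**Figure D3:**
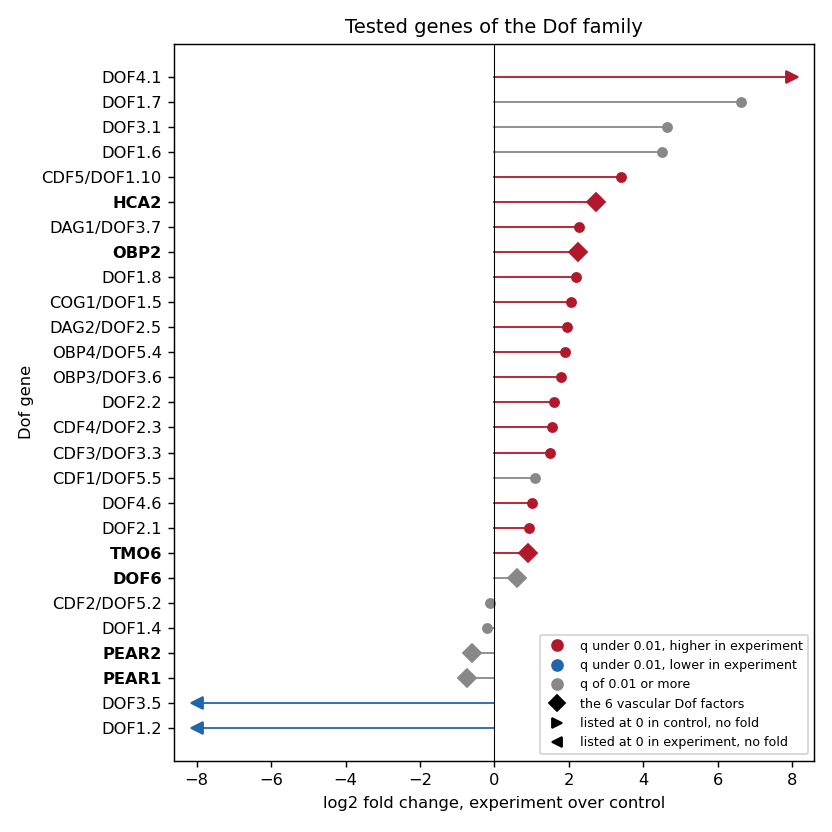
Log2 fold change, experiment over control, of the 27 tested Dof genes, sorted by fold, with diamonds and bold names for the 6 vascular Dof factors and arrows for genes listed at 0 in 1 condition. In all 16 genes were called higher (red) and 2 lower (blue), and PEAR1 (-0.75) and PEAR2 (-0.60) have the lowest finite folds.

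Each member was compared with the 23 other tested Dof genes that had a finite fold. PEAR1 and PEAR2 were each other's nearest neighbour in log2 fold change, 0.16 apart. DOF6 was nearest to TMO6 (0.29 apart), TMO6 to DOF2.1 (0.02 apart), and both OBP2 (0.04 apart) and HCA2 (0.46 apart) to DAG1. This likeness rests on 1 comparison of 2 conditions and describes the folds only.

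Regulators that act before the PEARs did not move together. The list covers auxin response and the TMO5-LHW module, which switches on cytokinin synthesis in young xylem. Of its 6 tested genes 2 rose and 3 fell in the experiment condition, where 22.3% and 21.2% of all tested loci did. The median log2 was -0.47, beside -0.03 over all tested loci. MONOPTEROS, called MP, had 0.684 in experiment and 3.48 in control in the authors' deposited table (log2 -2.35, q = 0.000338). TMO6, a target of MP, had the opposite sign. TMO5 itself had 10.6 in experiment and 9.72 in control (log2 0.13, q = 0.718), whereas its relative T5L1 rose to 29.5 in experiment, against 10.0 in control (log2 1.55, q = 0.000177 in the authors' deposited table). LHL2, a relative of LHW, had 2.85 in experiment and 1.17 in control (log2 1.29, q = 0.00866 in the authors' deposited table). LHW itself, named after its value was seen, had 9.12 in experiment and 19.0 in control (log2 -1.06, q = 0.000177 in the authors' deposited table), on a locus that holds a second gene. LHL1, another relative, fell by 1.7 on the log2 scale in the authors' deposited table, on a locus that reaches well past its gene. Without these 2 genes the counts were 2 risen and 1 fallen of 4.

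Of 8 tested genes of cytokinin supply and perception 2 rose and none fell, a share near the 22.3% of all tested loci that rose, and the median log2 was 0.35. The receptors AHK4 (15.1 in experiment, 5.74 in control, log2 1.39) and AHK3 (9.30 and 1.45, log2 2.68) rose in the authors' deposited table (q = 0.000177 for each). The cytokinin-activating enzyme LOG3 (0.0459 in experiment, 1.36 in control, q = 0.285) and AHP6, an inhibitor of cytokinin signalling in protoxylem (0.155 and 2.63, q = 0.300), had low values in experiment and were not called by the authors' deposited table.

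The HD-ZIP III genes, whose proteins restrain the PEARs, rose in 4 of 5 in the gene comparison, where 22.3% of all tested loci rose, with a median log2 of 1.64. In the authors' deposited table ATHB8 (11.8 in experiment, 2.49 in control, log2 2.24), CNA (17.7 and 4.72, log2 1.91) and PHV (7.94 and 2.54, log2 1.64) rose with q = 0.000177, and REV rose by 1.54 (q = 0.00456) on a locus that reaches past its gene. The isoform comparison called ATHB8, CNA and PHV higher, but it called an isoform of REV lower, with 82.0 in experiment and 253 in control (log2 -1.63, q = 0.00434 in the authors' deposited table). These isoform values lie far above the deposited gene values of REV (6.51 in experiment, 2.24 in control). The 2 rows are therefore not comparable in scale, and the direction of REV is left uncertain. PHB had 6.20 in experiment and 5.8 in control (log2 0.10, q = 0.755 in the authors' deposited table). PEAR1 and PEAR2 had lower values in experiment without a call, while ATHB8, CNA and PHV were called higher. TMO6 (log2 0.91, called higher) and DOF6 (log2 0.62, not called), which act with the PEARs, had higher values in experiment as well. No test links the Dof factors to the HD-ZIP III genes.

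Of 10 tested genes downstream of the PEARs or of procambial division 2 rose and none fell, a share near the 22.3% of all tested loci that rose, with a median log2 of 2.12. SMXL5, of the phloem SMXL genes, had 9.15 in experiment and 0.736 in control (log2 3.64, q = 0.000177), and the cyclin CYCD6;1 had 5.90 and 0.934 (log2 2.66, q = 0.00106), in the authors' deposited table. SMXL3, named here for its place downstream of PEAR1 after its value was seen, had 3.20 in experiment and 2.06 in control (log2 0.63, q = 0.158 in the authors' deposited table). The cambium regulators WOX4 (4.04 in experiment, 0.0478 in control, q = 0.172) and PXY (2.39 and 0.355, q = 0.0117) were not called by the authors' deposited table. The cyclin CYCD3;1, the 1 tested gene of the list with a lower value in experiment (2.91, against 6.12 in control), passes at a q under 0.05 (log2 -1.07, q = 0.0193 in the authors' deposited table) and was named after its value was seen.

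Phloem and xylem genes were higher where they were called. Of 9 tested genes of protophloem and sieve elements 6 rose and none fell, where 22.3% of all tested loci rose and 21.2% fell. The median log2 was 2.1, beside -0.03 over all tested loci. Summed values over the 12 listed were 94.8 in experiment and 18.6 in control. The sucrose carrier SUC2 (19.3 in experiment, 0.576 in control), the callose synthase CALS7 (1.65 and 0.165), the receptor BAM3 (14.8 and 1.88) and the phloem regulator APL (24.3 and 5.68) all had q = 0.000177 in the authors' deposited table. SEOR1 (log2 6.52, q = 0.305) and CLE45 (log2 1.69, q = 0.0280, on a locus that reaches past its gene) were not called by the authors' deposited table. OBP2 and HCA2 had folds in the range of this list, and a part of cell composition in that was not tested.

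Of 6 xylem vessel genes 5 rose, where 22.3% of all tested loci rose. Their summed values were 289 in experiment and 8.11 in control. VND6, a master regulator of vessels, was listed at 0 in control and had 1.48 in experiment (q = 0.000177 in the authors' deposited table). That q was shared by every tested gene of these lists at 0 in 1 condition. MYB46 (43.4 in experiment, 0.899 in control), XCP1 (184 and 5.56), LAC4 (38.3 and 0.273) and CESA7 (17.1 and 0.710, on a locus that reaches past its gene) rose in the authors' deposited table, and VND7 (4.83 and 0.673, q = 0.0110) did not pass.

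**Figure D4:**
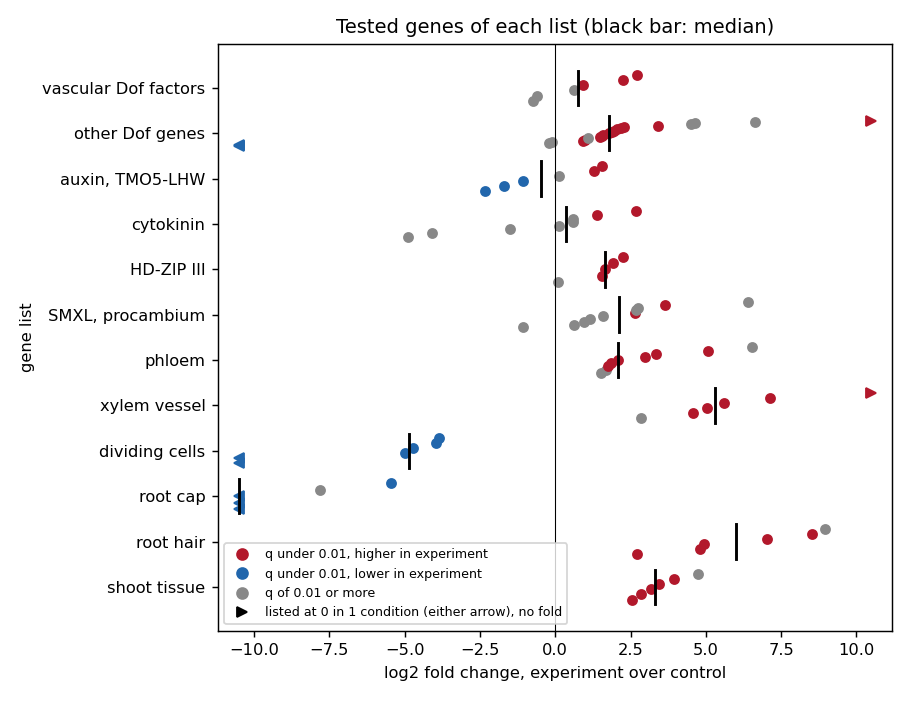
Log2 fold change, experiment over control, of the tested genes of each list, with 1 point per gene, arrows at the edges for genes listed at 0 in 1 condition, and a black bar at the median, which for the root cap list falls among genes at 0. The median is 0.76 for the vascular Dof factors, 1.78 for other Dof genes, 2.1 for phloem and 5.32 for xylem vessels, and -4.86 for dividing cells.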

How the data were processed

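RNA was sequenced from 6 libraries, 3 per root zone, grouped by their titles. The authors used TopHat, Cufflinks and Cuffdiff on TAIR10, per the submitters' processing notes, with versions not given in the sources used here. Per the labels' protocols, low-input RNA was copied by template switching, amplified and tagmented, which does not mark strand. Both deposited tables hold, per gene or isoform, a value for each of 2 conditions, the log2 fold change, a test statistic (the authors' score, not used here), a p-value and a q-value, per the file headers. The log2 values were checked and equal experiment over control within 4.79e-05. Recomputing Benjamini-Hochberg over tested loci gave the deposited q-value within a relative difference of 4.90e-06. No label uses the condition names, so no value was given to a zone.

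A gene was called at q under 0.01. Symbols and sequences come from RefSeq on TAIR10.1, and 28171 of 28172 loci naming 1 matched gene overlap that gene there. A locus was marked uncertain when it names several genes or reaches over 1000 bases past its gene. Copies were sought with BLAST 2.17.0, and other steps used Python 3.11.15 with pandas 2.3.3. The adjustment was tested on simulated data. Members and lists were chosen with earlier results of these data known. In all, 1 gene of the auxin list and 1 finger sequence are not reported here, and counts and identities leave them out. Named genes were all members, every tested Dof gene, every tested gene of lists of up to 6, and up to 4 called and 2 uncalled genes of the other lists by absolute log2. LHW, SMXL3 and CYCD3;1 were added after their values were seen. For the section and shoot markers only counts, sums and genes listed at 0 are given.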

Additional observations from a re-analysis of the deposited data

How the results depend on the processing

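The calls of the 6 vascular Dof factors were 3 as reported, 3 at a q under 0.05, 2 with a minimum absolute log2 of 1 (TMO6 drops out at 0.91) and 2 in the isoform comparison (OBP2 drops out). They fell to 1 at a q under 0.001 and to 1 with the Benjamini-Yekutieli adjustment. Called isoforms numbered 0 at a q under 0.001, against 2 as reported. The list of genes downstream of the PEARs had 4 calls at a q under 0.05 (3 higher, 1 lower) and 1 under each of the 2 stricter rules, against 2. Cytokinin genes had 5 calls at a q under 0.05 and 5 in the isoform comparison, each time 4 higher and 1 lower, against 2. At a q under 0.05 the lower one was AHK2 (q = 0.0133, on a locus that names 2 genes). An isoform of AHK2 was called higher, with 5.79 in experiment and 1.47 in control, so the direction of AHK2 is uncertain. In the isoform comparison the lower one was LOG4, with 163 in experiment and 578 in control. Those values lie far above its deposited gene values (0 in experiment and 0.438 in control, no test), so the direction of LOG4 is uncertain too. HD-ZIP III genes had 4 calls in the isoform comparison, 3 higher and 1, REV, lower, on an isoform with values far above those of its gene. In the isoform comparison the auxin and TMO5-LHW list had 1 call against 5, phloem 1 against 6, xylem 3 against 5, and all tested features 16.8% against 43.6%. The cause of these differences was not tested. The other 36 alternative counts of the Dof, pathway and whole-table results stayed within 1.5 times the value reported. Among the markers, the isoform comparison called 1 dividing-cell gene against 6, 2 root cap genes against 4, 3 root hair genes against 5 and 1 shoot gene against 5, and the 2 stricter rules called 3 shoot genes.

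The deposited values summed over all loci were higher in experiment by 0.23 on the log2 scale. With both conditions scaled to equal sums, chosen after seeing the data, the log2 fold changes were -0.98 for PEAR1, -0.83 for PEAR2, 0.39 for DOF6, 0.68 for TMO6, 2.5 for HCA2 and 2.01 for OBP2, and none changed sign. A pseudocount of 1 gave -0.30 for PEAR2 and 1.84 for HCA2. No paired analysis was possible because the files hold no value per library, and for the same reason no replicate was left out and the limits set by depth are unknown.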

Other observations

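The authors' deposited table gives no test for 9 of the 36 Dof genes. The clustered genes DOF4.2, DOF4.3, DOF4.4 and DOF4.5, together with the guard cell regulator SCAP1 and DOF5.8, were listed at 0 in both conditions. DOF1.3 had 0.422 in experiment and 0.407 in control, DOF4.7, on a locus that reaches past its gene, had 0.173 and 0.799, and OBP1 had 0.365 in experiment and was listed at 0 in control, in the authors' deposited table. Summed over all 36 genes, the deposited values came to 581 in experiment and 218 in control, of which the 6 vascular Dof factors made up 70.7 and 26.2.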
